A study of Mus musculus with 14 samples.

Results

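The miR-29 family was measured in plasma of mice with osteosarcoma (OS), a bone tumor, and of wild-type mice by quantitative PCR. Of 389 miRNAs with a name in the screen, 7 belonged to the family. They are the wells whose name, without species prefix, arm suffix, copy number and star, reads miR-29a, miR-29b or miR-29c. These are the guides mmu-miR-29a, mmu-miR-29b and mmu-miR-29c and the passenger arms mmu-miR-29a*, mmu-miR-29b-1*, mmu-miR-29c* and rno-miR-29b-2*, the last under a rat name. The mouse prefix mmu is left off from here on. The OS group held 8 mice of a genetically engineered mouse model (GEMM), in which Cre under an osteoblast Col-α1(I) promoter removes 1 or both floxed Trp53 alleles. The labels do not say which mice carried 1 floxed allele and which carried 2, nor the age of each mouse. The control group held 6 healthy wild-type littermates, described in the study as matched in age, which by the methods also carried the Cre transgene with intact Trp53. Blood was taken by cardiac puncture once a tumor had formed, or at sacrifice of the littermates, and each mouse gave 1 plasma sample.

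miR-29 is made from a pair of gene clusters. Each hairpin is cut into a guide, the strand that is loaded into Argonaute and pairs with target mRNAs, and a passenger arm, marked with a star, which is mostly degraded. The guides are best known for repressing mRNAs of collagens, elastin, fibrillin and other matrix proteins, they fall in fibrosis, and in osteoblasts they act on collagen and osteonectin as the matrix matures. They also repress the DNA methyltransferases Dnmt3a and Dnmt3b and the antiapoptotic protein Mcl1, and have been studied as tumor suppressors that raise p53 activity.

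The mature sequences, from RefSeq on build GRCm38.p6, are shown because the guides share a seed and the passenger arms do not. All 7 assays matched a mouse sequence, with the mouse miR-29b-2 arm standing in for the rat assay. Capitals mark the seed, bases 2 to 8 from the 5′ end, which sets most target pairing. The guides are these.
miR-29a: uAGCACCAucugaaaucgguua
miR-29b: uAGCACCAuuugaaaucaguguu
miR-29c: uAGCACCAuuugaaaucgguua
The passenger arms are these.
miR-29a*: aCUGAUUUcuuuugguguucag
miR-29b-1*: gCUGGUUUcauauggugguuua
miR-29c*: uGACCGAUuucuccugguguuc
miR-29b-2*: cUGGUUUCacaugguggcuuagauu

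The guides share the seed AGCACCA, which no other of 1679 mature mouse miRNA names in the table holds. Counted from the 5′ end, miR-29a and miR-29c differ only by C10U. miR-29a and miR-29b differ by C10U, G18A, U21G and A22U over 22 positions, and miR-29b is 1 base longer. Whether the miR-29a and miR-29c primers tell that single base apart was not tested. miR-29b alone among the 7 ends in AGUGUU, at positions 18 to 23, a motif known in human cells to send miR-29b to the nucleus. It is found on the RNA strand of 0.715% of the mature names, without regard to overlap. The passenger arms share no seed with each other.

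Mir29a (chr6:31062660-31062747) and Mir29b-1 (chr6:31063023-31063093) lie on the minus strand of chromosome 6, 275 bases apart, and no other annotated gene overlaps them. Mir29b-2 (chr1:195037040-195037120) and Mir29c (chr1:195037547-195037634) lie on the plus strand of chromosome 1, 426 bases apart, within the bounds of the lncRNA gene A330023F24Rik. The mature miR-29b is the same from either cluster, so its assay cannot tell them apart, while each passenger arm comes from 1 hairpin.

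Each deposited value is a quantification cycle (Cq), the PCR cycle where the fluorescence of a well passes a fixed level, and a lower Cq stands for more of the miRNA. They were turned into normalized log2 levels, taken as the mean Cq over the retained miRNAs of a mouse less that of the given miRNA. A higher level therefore stands for more, and 1 unit is a doubling. Levels of different assays depend on their primers as well as on abundance. The global mean Cq ran from 31.7 to 32.9 in OS mice and from 30.6 to 32.8 in control mice, and 13.9% to 24.7% of all wells were blank in OS mice against 14.1% to 23.4% in control mice. A marker of red blood cell lysis, the Cq of miR-23a minus that of the red cell miRNA miR-451, was 4.19 ± 1.94 cycles in OS mice (SD, n = 8) and 5.77 ± 1.43 in control mice (SD, n = 6), with OS replicates 10, 11 and 12 lowest at 1.05, 2.97 and 2.59.

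All 3 guides were detected in every mouse. miR-29a had Cq values from 24.88 to 27.53 in OS mice and from 24.64 to 27.27 in control mice. Its mean level placed it at rank 25 of the 388 retained miRNAs, counted from the most abundant. miR-29c ranked 38 and miR-29b 74. The order miR-29a, miR-29c, miR-29b held in each of the 14 mice. miR-29a exceeded miR-29c by 0.79 ± 0.33 on the log2 scale (SD, n = 14), from 0.36 to 1.40, and miR-29c exceeded miR-29b by 1.10 to 4.08.

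The passenger arms lay far below the guides. miR-29a* ranked 163, miR-29c* 269, miR-29b-1* 288 and rno-miR-29b-2* 368. miR-29a* lay above each of the other passenger arms in every mouse that measured them, whereas miR-29b-1* and miR-29c* had no fixed order, with miR-29b-1* higher in 5 of 13 mice. miR-29a exceeded its own passenger arm by 5.72 ± 0.77 on the log2 scale (SD, n = 14) and miR-29c exceeded miR-29c* by 7.61 ± 0.46 (SD, n = 14). Cq values of 33.45 and above put miR-29c* of OS mice close to the background limit of Cq 37, and miR-29b-1* was over that limit in control replicate 1 at 37.47. rno-miR-29b-2* was blank in control replicate 1 and over the limit in OS replicate 19 at 37.15.

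**Figure D1:**
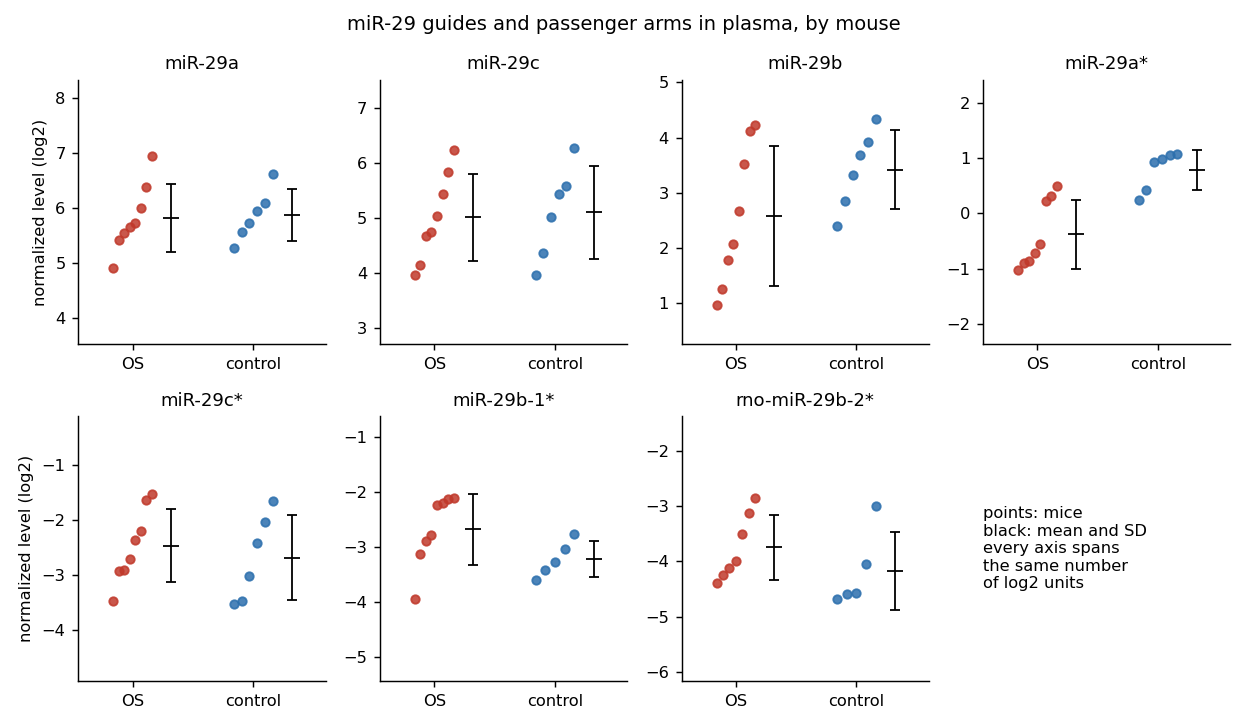
Normalized log2 plasma level (vertical axis) of the 7 miR-29 assays, 1 point per mouse sorted by value, in OS mice on the left and control mice on the right of each panel, with the mean and SD in black. miR-29a* averaged -0.38 in OS mice and 0.79 in control mice, while the miR-29a and miR-29c points of both groups cover nearly the same range.

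The first comparison asked whether the family differs in plasma between OS mice and control mice. Of the 7 assays, miR-29a* alone passed, lower in OS mice. Over all 388 miRNAs 12.6% passed at a limma adjusted p under 0.05, and 6.44% passed as lower and 6.19% as higher in OS mice, so 1 of 7 is not far from the background. Of the other assays, miR-29a, miR-29b and miR-29c had negative differences and the remaining 3 passenger arms positive ones, where 50.3% of all miRNAs had a negative difference. The median difference of the 7 was -0.05 on the log2 scale, beside -0.0027 over all miRNAs.

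miR-29a* is the passenger arm of the most abundant guide. Its normalized log2 level was -1.03 at the lowest, -0.64 at the median and 0.51 at the highest in OS mice, against 0.24, 0.97 and 1.09 in control mice. Of the 8 OS mice, 6 lay below every control mouse, and OS replicates 15 and 18, at 0.31 and 0.51, lay within the range of the control mice. The mean was 2.25-fold lower, at -0.38 ± 0.62 in OS mice (SD, n = 8) and 0.79 ± 0.36 in control mice (SD, n = 6), a log2 difference of -1.17 (standard error 0.34, 95% interval -1.88 to -0.45, limma adjusted p = 0.0327; exact permutation test, two-sided, p = 0.00366).

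The lower level of miR-29a* kept its direction in every alternative fit, and it passed in 9 of 13 alternative settings and in 6 of the 14 fits that left out 1 mouse. Among the settings it passed, leaving out the filter on missing values repeated the main fit. Keeping only miRNAs measured in every mouse left the estimate at -1.17 and changed only the adjusted p. It was -1.61 with each panel on its own mean (limma adjusted p = 0.0150). It did not pass once the haemolysis marker entered the fit as a covariate (-0.98, limma adjusted p = 0.162). That fit takes 1 slope for both groups, where r of miR-29a* with the marker was 0.742 within OS mice and -0.742 within control mice. Nor did miR-29a* pass with both mice of a marker above 7 left out, control replicates 3 and 13 (-1.23, limma adjusted p = 0.0952), or when scaled to the median (-1.03, limma adjusted p = 0.0679). Scaled to 3 reference miRNAs, namely miR-191, miR-423-3p and miR-103, it did not pass either (-1.22, limma adjusted p = 0.104). Of these references, miR-103 was itself lower in OS mice (-1.28, limma adjusted p = 0.0295), and miR-191 did not pass (0.42, limma adjusted p = 0.498). Without any 1 of OS replicates 10, 11, 12, 16 and 19 and control replicates 2, 3 and 4 the difference of miR-29a* was -1.14 to -1.08 (limma adjusted p 0.0544 to 0.0764).

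miR-29a, the guide from the same hairpin, showed no such difference. Its level was 4.92 at the lowest, 5.69 at the median and 6.94 at the highest in OS mice, against 5.27, 5.84 and 6.62 in control mice. The groups overlapped over nearly their whole range. The means were 5.82 ± 0.62 in OS mice (SD, n = 8) and 5.87 ± 0.47 in control mice (SD, n = 6), and the 95% interval of the log2 difference of -0.05 ran from -0.79 to 0.68 (limma adjusted p = 0.949). A change of up to 0.68 in either direction thus lies within the interval.

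miR-29c, which differs from miR-29a by 1 base, gave nearly the same picture. Its level was 3.97, 4.90 and 6.23 at the lowest, median and highest in OS mice, against 3.96, 5.23 and 6.26 in control mice. The log2 difference was -0.09 (95% interval -1.004 to 0.823, limma adjusted p = 0.928). The sign of both differences turned under some scalings and with some mice left out, and neither passed in any alternative.

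miR-29b, the guide with a copy in each cluster, was the most variable of the 3 in OS mice. Its level was 0.96 at the lowest, 2.37 at the median and 4.23 at the highest there, against 2.39, 3.496 and 4.34 in control mice. OS replicates 10, 11, 12 and 19 lay below every control mouse, and the other OS mice lay within the control range. The SD was 1.27 in OS mice (n = 8) and 0.71 in control mice (n = 6), and the log2 difference of -0.84 did not pass (standard error 0.53, 95% interval -1.96 to 0.27, limma adjusted p = 0.284). With the haemolysis marker as a covariate the difference was -0.12 (limma adjusted p = 0.933).

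The other passenger arms had positive differences that did not pass. For miR-29b-1*, made from the hairpin next to Mir29a, the level was -2.67 ± 0.64 in OS mice (SD, n = 8) and -3.22 ± 0.33 in control mice (SD, n = 5), and 4 OS mice lay above every control mouse while 1, replicate 18 at -3.94, lay below every one (log2 difference 0.54, 95% interval -0.23 to 1.32, limma adjusted p = 0.328). For miR-29c* the difference was 0.22 (95% interval -0.62 to 1.06, limma adjusted p = 0.742) and for rno-miR-29b-2* it was 0.43 over 7 OS mice and 5 control mice (95% interval -0.44 to 1.31, limma adjusted p = 0.498). With unscaled Cq each of these 3 differences was slightly below 0.

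**Figure D2:**
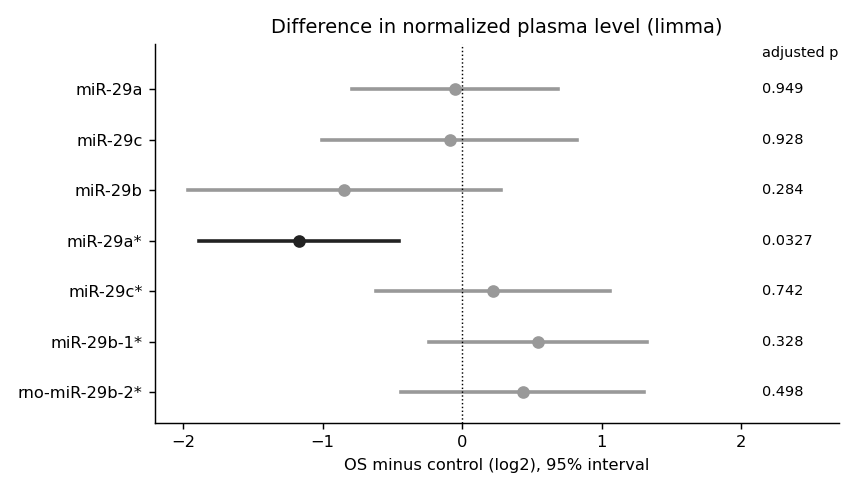
Log2 difference in normalized plasma level, OS mice minus control mice (horizontal axis), for the 7 miR-29 assays, as limma estimates (points) with 95% confidence intervals (bars) and adjusted p. The black bar of miR-29a* (-1.17) does not reach 0, while the grey bars of the other 6 do.

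The arms of a hairpin are cut from the same transcript, and in their difference within a mouse a scaling common to both cancels. miR-29a exceeded miR-29a* by 5.49 to 6.71 in OS mice (median 6.30), against 4.18 to 5.86 in control mice (median 5.16). Of the 8 OS mice, 6 had a wider gap than every control mouse. The mean gap was 6.20 ± 0.41 in OS mice (SD, n = 8) and 5.08 ± 0.66 in control mice (SD, n = 6), a log2 difference of 1.12 (95% interval 0.31 to 1.92), or 2.17-fold.

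To place this value, the same difference was fitted over the 51 miRNAs for which an assay of a name and of that name with a star were both retained. Of these pairs 17.6% passed at a limma adjusted p under 0.05, namely 9, and miR-29a was among them at the threshold (limma adjusted p = 0.0498; exact permutation test, p = 0.00266). Its difference was positive, as for only 1 other pair that passed, miR-214, and pairs that passed in this direction were 3.92% of the total. The others that passed, 13.7% of the pairs, ran the other way, among them miR-322 (-1.83), miR-18a (-1.58), miR-141 (-2.11) and miR-15a (-1.45), all as log2 differences. The value fitted is the assay without a star minus the star assay, so a negative difference need not be a narrower gap. For miR-18a its mean was 1.13 in control mice and -0.45 in OS mice. The median over the 51 pairs was -0.44, and 35 lay below 0. miR-29c, the other family member among these pairs, lay near that median at -0.31 (95% interval -1.08 to 0.46, limma adjusted p = 0.631). miR-29b, whose passenger arms carry a copy number and so fall outside that pairing, had negative gap differences that did not pass. Its gap to miR-29b-1* was 5.25 ± 1.71 in OS mice (SD, n = 8) and 6.84 ± 0.47 in control mice (SD, n = 5), a log2 difference of -1.59 (exact permutation p = 0.0754, adjusted p = 0.158 over the 21 pairs of members). Its gap to rno-miR-29b-2* differed by -1.41 (exact permutation p = 0.0581, adjusted p = 0.136).

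The call for the gap of miR-29a was a narrow one. In the 14 fits that left out 1 mouse the gap difference was 0.94 to 1.27 with limma adjusted p from 0.0450 to 0.115, and it passed without OS replicate 15 or OS replicate 18 but in none of the other 12. The number of pairs that passed was 0 without any 1 of OS replicates 10, 11 and 12 and control replicates 2, 3, 13 and 14, once the haemolysis marker was a covariate, and with both mice of a marker above 7 left out.

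miR-29a lies on panel I of the platform and miR-29a* on panel II, as do the arms of 44 of the 51 pairs. Panel II had a mean Cq above that of panel I by 0.998 ± 0.309 cycles in OS mice (SD, n = 8) and by 1.68 ± 0.19 in control mice (SD, n = 6; exact permutation test, p = 0.000333, the smallest p this design allows). The wells of miR-191, miR-423-3p and miR-103, which stand on both panels, differed between panels by -0.314 ± 0.165 cycles in OS mice (SD, n = 8) and -0.268 ± 0.080 in control mice (SD, n = 6; exact permutation p = 0.546). With each panel on its own mean, the gap of miR-29a differed by 1.803 (limma adjusted p = 0.00376). That scaling carries the difference in panel means between groups, -0.686 cycles, into every gap across panels. The larger value is therefore not a separate test of the gap.

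**Figure D3:**
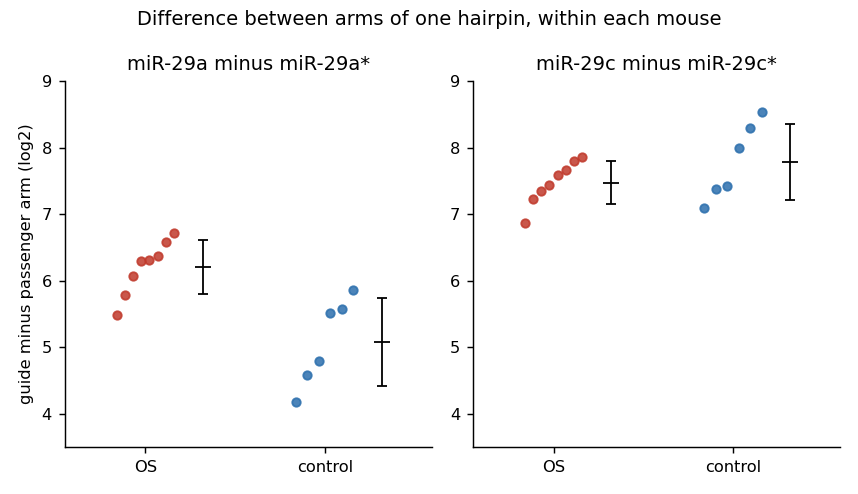
Guide minus passenger arm within each mouse on the log2 scale (vertical axis) for miR-29a and miR-29c, in OS mice on the left and control mice on the right, with the mean and SD in black. For miR-29a the OS mice lie from 5.49 to 6.71 and the control mice from 4.18 to 5.86, and for miR-29c the groups overlap.

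**Figure D4:**
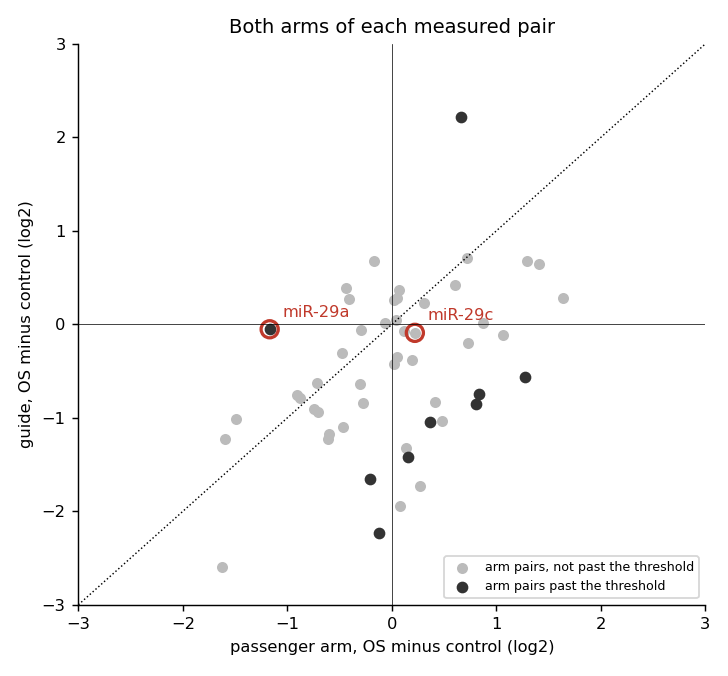
Log2 difference, OS mice minus control mice, for 51 arm pairs. The star assay, labelled passenger arm, is on the horizontal axis and the assay without a star, labelled guide, on the vertical axis. Arms are named by the star alone, and in some pairs the star assay had the higher level. Dark points passed on the gap between arms, the dotted line marks equal change, and miR-29a (-1.17 and -0.05) lies above the line where most dark points lie below it.

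Members were then compared with each other within each mouse. Among the guides, the gap between miR-29a and miR-29c was 0.81 ± 0.30 in OS mice (SD, n = 8) and 0.77 ± 0.40 in control mice (SD, n = 6), a log2 difference of 0.04 (95% interval -0.36 to 0.44). The gap between miR-29a and miR-29b was 3.25 ± 0.80 in OS mice (SD, n = 8) and 2.46 ± 0.39 in control mice (SD, n = 6). It differed by 0.79, and adjusted over the 3 pairs of guides it did not pass (exact permutation p = 0.0433, adjusted p = 0.0649). The gap of miR-29b to miR-29c differed by -0.75 (exact permutation p = 0.0246, adjusted p = 0.0649). These calls passed without OS replicate 15 (adjusted p = 0.0219 and 0.0192), without OS replicate 18 (adjusted p = 0.0393 for each) and without control replicate 1 (adjusted p = 0.0455 for each).

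Over all 21 pairs of the 7 assays, 2 differed between groups at an adjusted p under 0.05, and miR-29a* was in each. They are its gaps to miR-29a, given above, and to miR-29c*. miR-29a* exceeded miR-29c* by 2.08 ± 0.48 in OS mice (SD, n = 8) and by 3.47 ± 1.01 in control mice (SD, n = 6), a difference of -1.39 (95% interval -2.27 to -0.49, exact permutation p = 0.00466, adjusted p = 0.0490). Both wells stand on panel II, and the gap between miR-29a* and miR-29c* was not refitted under the alternatives. miR-29a* was the member already called on its own, so these 2 gaps are not results separate from its difference. The share over pairs of all miRNAs was not computed. The gap between miR-29a* and miR-29b-1*, from neighbouring hairpins, differed by -1.67 (exact permutation p = 0.0233, adjusted p = 0.0739).

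Across mice the guides moved together. miR-29a and miR-29c had r = 0.939 and rho = 0.938 over 14 mice (permutation p = 1e-05 for each, the smallest that 100000 resamples can give, adjusted p = 0.000300 over 30 relations). Without the 2 mice farthest from the median r was 0.911, and it was 0.937 within OS mice and 0.979 within control mice. miR-29a and miR-29b had r = 0.803 and rho = 0.846 (permutation p = 0.000500 and 0.000210, adjusted p = 0.00375 and 0.00315), with r = 0.769 without the 2 farthest mice, 0.854 within OS mice and 0.869 within control mice. All these levels share the same scaling within a mouse. miR-29a and miR-29c differ by 1 base, and how far each assay also detects the other was not tested.

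Of the passenger arms, miR-29c* ran with the guides, while the relation of miR-29a* to its own guide did not pass over all mice. miR-29c* had r = 0.812 and rho = 0.793 with miR-29c over 14 mice (permutation p = 0.000680 and 0.00129, adjusted p = 0.00408 and 0.00740), and r = 0.775 without the 2 farthest mice. miR-29a* had r = 0.383 and rho = 0.270 with its own guide (permutation p = 0.178 and 0.351, adjusted p = 0.333 and 0.584, r = 0.322 without the 2 farthest mice). That r was 0.787 within the 8 OS mice (exact permutation p = 0.0139) and -0.256 within the 6 control mice (exact permutation p = 0.614), and the difference between these was not tested. In levels scaled to the mean Cq, miR-29a* ran against miR-29b-1*, its neighbour in the genome, at r = -0.813 and rho = -0.857 over 13 mice (permutation p = 0.00112 and 0.000370, adjusted p = 0.00480 and 0.00370, r = -0.729 without the 2 farthest mice, -0.845 within OS mice). This relation was not refitted with unscaled Cq or another scaling, so it is shown for these scaled levels only. The Cq of miR-29b-1* ran from 33.89 to 36.43 in these mice, close to the background limit.

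By likeness over the 14 mice, the miRNAs nearest to miR-29a of 275 others measured in every mouse were its relatives. miR-29c came first, miR-29b (r = 0.803) and miR-29c* (r = 0.801) next, then miR-802 (r = 0.754), known from liver metabolism, and miR-22 (r = 0.7504), known from muscle and heart. miR-29a* stood at rank 64 in that order. The miRNAs nearest to miR-29a* were rno-miR-338 (r = 0.916), miR-101a* (r = 0.879), miR-101a (r = 0.865), miR-338-3p (r = 0.851) and miR-126-5p (r = 0.829), an arm of the endothelial hairpin miR-126. Each of these 5 had a negative difference between OS and control mice, from -1.60 to -0.73 on the log2 scale, and none of the 5 passed (limma adjusted p 0.0615 to 0.146). miR-29a ranked 83 in likeness to miR-29a*. These correlations are descriptions over the same mice, which share their scaling and groups, and detection of 1 guide by the assay of another was not tested.

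The level of miR-29b ran with the haemolysis marker, which is lower in plasma with less red cell miR-451. Over 14 mice r was 0.790 and rho 0.640 (permutation p = 0.000930 and 0.0162, adjusted p = 0.00465 and 0.0606), r was 0.682 without the 2 mice farthest from the median marker, 0.831 within OS mice (exact permutation p = 0.0119) and 0.493 within control mice (exact permutation p = 0.310). The gap between miR-29a and miR-29b, free of the scaling, ran against the marker at r = -0.884 and rho = -0.723 (permutation p = 4e-05 and 0.00454, adjusted p = 0.000600 and 0.0195), at -0.782 without the 2 farthest mice, at -0.950 within OS mice (exact permutation p = 0.000546) and at -0.543 within control mice (exact permutation p = 0.289). The widest gap, 4.69, was in OS replicate 10, which had the lowest marker at 1.05.

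miR-29a and miR-29c did not pass with the marker (r = 0.399 and 0.462, rho = 0.512 and 0.459, permutation p = 0.158 and 0.0973 for r, adjusted p = 0.317 and 0.208). For miR-29a* r was 0.560 and rho 0.393 (permutation p = 0.0381 and 0.165, adjusted p = 0.106 and 0.330), with 0.742 within OS mice (exact permutation p = 0.0414) and -0.742 within control mice (exact permutation p = 0.107). The gap between miR-29a and miR-29a* had r = -0.294 with the marker (permutation p = 0.306, adjusted p = 0.482).

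**Figure D5:**
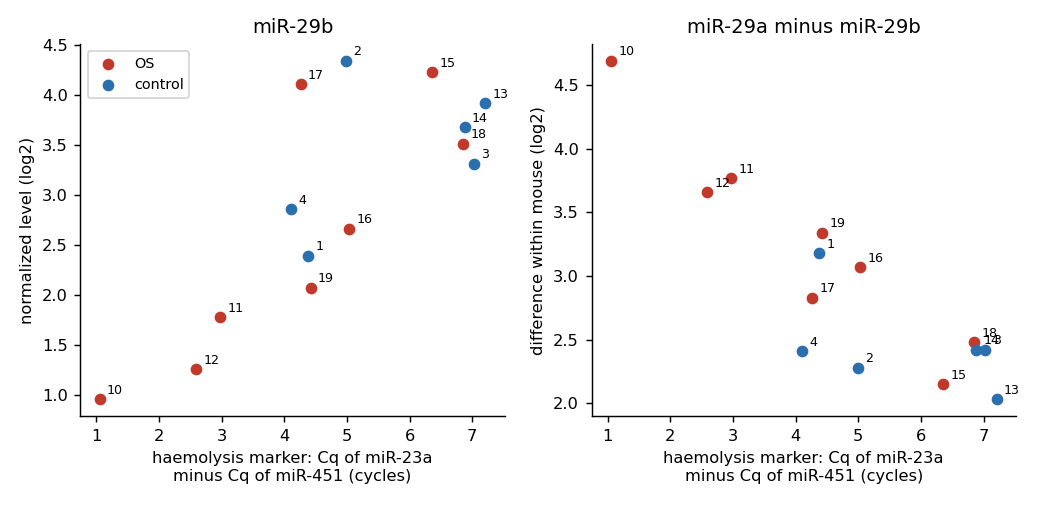
Haemolysis marker in cycles (horizontal axis) against the normalized log2 level of miR-29b (left) and the log2 gap between miR-29a and miR-29b (right), 1 point per mouse with its replicate number, OS mice in red and control mice in blue. OS replicates 10, 11 and 12 have the lowest markers (1.05, 2.97 and 2.59), the lowest miR-29b and the widest gaps.

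Other miRNAs tied to the same biology were taken from lists. Among 31 assays of miRNAs that act on collagen or in fibrosis, let-7d was lower in OS mice (log2 difference -1.94, limma adjusted p = 0.0295), miR-214, a miRNA of mesenchymal cells, was higher with the mouse and with the rat assay (2.22 and 2.34, limma adjusted p = 0.0457 and 0.0347), and 28 did not pass. Among 28 assays of osteoblast miRNAs, miR-141, best known from epithelia, was lower (-2.23, limma adjusted p = 0.0261), the same pair of miR-214 assays was higher and 25 did not pass. In each list 3 assays passed, where 12.6% of all miRNAs did, so neither count exceeds the background share. The lists share miR-214 and other members. Their median differences were -0.22 each, beside -0.0027 over all miRNAs. miR-29a* was 1 of 4 star assays called lower among 71, with miR-15b*, rno-miR-136* and miR-16-1*, which is 5.63% beside 6.44% of all miRNAs. miR-674* was the 1 called higher, which is 1.41% beside 6.19%.

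Lists of miRNAs of blood cells, muscle and liver were summed in each mouse, and with the lists above 7 sums were compared. That of the white blood cell miRNAs alone passed after adjustment over the 7. The summed level of 14 assays of white blood cell miRNAs, on a log2 scale, ran from 8.14 to 8.74 in OS mice against 8.70 to 9.73 in control mice (difference -0.70, exact permutation p = 0.000999, adjusted p = 0.00699). Of these assays 12 did not pass, miR-223 among them (-0.49, limma adjusted p = 0.242), and 2 were lower, miR-142-3p (-3.57, limma adjusted p = 0.00326) and miR-146b (-1.29, limma adjusted p = 0.0407). A sum of linear levels weighs the most abundant assays most, and miR-142-3p averaged 3.28 in OS mice and 6.85 in control mice. The sum is therefore not a measure of white blood cells as a whole. miR-223 stands in the platelet list as well. For 12 assays of red blood cell miRNAs the sum ran from 9.76 to 13.00 in OS mice against 12.02 to 14.04 in control mice and did not pass (difference -1.25, exact permutation p = 0.0460, adjusted p = 0.107). Here miR-144, miR-15b* and miR-16-1* were lower and 9 assays did not pass, among them miR-451, the defining one (-1.43, limma adjusted p = 0.132). The platelet list, with no call among 12 assays, ran from 8.79 to 9.15 in OS mice against 8.86 to 9.75 in control mice (difference -0.31, exact permutation p = 0.0290, adjusted p = 0.101). No assay passed in the muscle list of 8 or the liver list of 4, and adjusted p of the remaining sums was 0.224 for liver, 0.613 for the collagen list and 0.718 for the muscle and the osteoblast list. Beside the counts of calls in these lists, 12.6% of all miRNAs passed, 6.44% as lower and 6.19% as higher. Whether the share of calls in any list differs from that was not tested. Of the defining markers, miR-451, miR-142-3p, miR-223 and miR-122 were measured in every mouse. The part of white blood cells and platelets in the difference of miR-29a* was not tested, and in plasma less release of an arm and fewer cells that release it cannot be told apart.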

How the data were processed

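Plasma RNA of 8 GEMM OS mice and 6 wild-type control mice was measured by the authors on Exiqon mouse panels I and II, and by the methods raw data went into GenEx Pro for interplate calibration and removal of outlying values. The Cq values that the authors deposited are on a log2 scale and unscaled across mice. For this screen the methods count 14 GEMM OS mice, where 8 OS samples were analysed here. No source used here says if calibration or outlier removal preceded the deposited values. A second deposited table holds the authors' fold changes and p-values, from which only well positions and names were taken, 392 wells with 389 miRNAs. No per-sample column was left unused (0).

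Cq values over 37 counted as missing. Any miRNA missing from at least 75% of mice was dropped, which left 388. Levels are relative to the mean Cq of each mouse, for which missing values took the group mean or Cq 38. Wells of a miRNA were averaged. Groups were compared by limma 3.58.1 in R 4.3.3 with Benjamini-Hochberg adjustment over all miRNAs, or over 51 arm pairs, and single values by exact permutation tests, two-sided, in Python 3.11.15. Intervals of within-mouse gaps hold the shifts an exact test did not refuse at 0.05. Summed levels are log2 of summed linear levels. Lists hold every assay of a name, all arms and both species prefixes.

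Named were the 7 members, the haemolysis miRNAs, the 5 miRNAs most like miR-29a and miR-29a*, up to 3 called miRNAs per list, and 5 arm pairs with the smallest p. The 4 star assays beside miR-29a* and the reference miRNAs are named outside this rule. Members, lists and tests were chosen with earlier results of these data known. The comparisons of miR-29b-1*, miR-29c* and rno-miR-29b-2*, of all 21 pairs, and the relation of the miR-29a to miR-29b gap with the marker were added after the data were seen. No counts lie behind a Cq, so precision is the spread between mice. Alternatives changed the scaling, the Cq limit, the filter, the test, the haemolysis marker as covariate or limit, or left out 1 mouse. The code was tested on simulated data.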

Additional observations from a re-analysis of the deposited data

Results flagged for a closer look

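Within-group values were checked for a mouse standing apart by more than Dixon's critical gap, over 26 groups of values, of which chance would mark about 1 in 20. In OS mice, the gap of miR-29b to miR-29c was -4.08 in replicate 10, with the next mouse at -2.71. In control mice, the gap of miR-29a to miR-29b was 3.18 in replicate 1, with the next mouse at 2.42.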

How the results depend on the processing

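No difference of miR-29a, miR-29b or miR-29c passed in any alternative. Under median scaling, panel means and the haemolysis covariate the sign turned for miR-29a (0.0885, 0.193 and 0.160) and miR-29c (0.0502, 0.155 and 0.264). Leaving out 1 mouse gave -0.21 to 0.0998 for miR-29a, -0.31 to 0.144 for miR-29c and -1.08 to -0.61 for miR-29b. The other settings gave -1.28 (unscaled Cq) to -0.12 (haemolysis covariate) for miR-29b. miR-29a* did not pass under median scaling (-1.03), reference miRNAs (-1.22), the covariate (-0.98) and with both mice of a marker above 7 left out (-1.23), and leaving out 1 mouse gave -1.30 to -1.08. With unscaled Cq the sign turned for miR-29b-1* (-0.12), miR-29c* (-0.21) and rno-miR-29b-2* (-0.13), with panel means for miR-29c* (-0.22) and rno-miR-29b-2* (-0.0241), and with a Cq limit of 35 for miR-29c* (-0.28). The gap of miR-29a to miR-29a* missed with no Cq limit or missing values at Cq 38 (1.12 each), with the covariate (1.14) and without the mice over 7 (1.15), and leaving out 1 mouse gave 0.94 to 1.27. Panel means turned the gap of miR-29c to 0.375. Without 1 mouse the gaps of guides ran from 0.586 to 0.949 (miR-29a to miR-29b), -0.0460 to 0.146 (miR-29a to miR-29c) and -0.87 to -0.52 (miR-29b to miR-29c), and without the mice over 7 miR-29a to miR-29c was -0.0400. The cause was not tested.

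Of all 388 miRNAs 49 passed, with 25 lower. Median scaling gave 14 lower and 28 higher, reference miRNAs 11 and 22, unscaled Cq 17 and 4, the covariate 6 and 11, the methods' t-test after Benjamini-Hochberg 14 and 10, a Cq limit of 35 15 and 14 of 336 tested, and no mice over 7 10 each. Leaving out 1 mouse gave 20 (control replicate 3) to 73 (OS replicate 15) calls. The 9 arm pairs became 4 with panel means, 5 with no Cq limit or the t-test, 6 with missing values at 38, 13 with a Cq limit of 35, and 0 to 13 without 1 mouse. Median scaling moved the median of all miRNAs to 0.138 and unscaled Cq to -0.45. With every miRNA measured in each mouse, miR-29b-1* and rno-miR-29b-2* had no value. The labels give no litter, so mice could not be paired or grouped by litter. Cq values near 37 limit the weaker passenger arms.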
